A study of Mus musculus with 9 samples.

Results

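Matricellular proteins are secreted proteins that sit in the extracellular matrix but, unlike collagens, are not there mainly to bear load. They bind matrix fibres, growth factors and cell-surface receptors such as integrins, and so change how a cell adheres to and senses its surroundings. In fibroblasts they are best known from wound repair, fibrosis and tissue development. The set described here holds 10 genes: the tenascins *Tnn*, *Tnc*, *Tnr* and *Tnxb*, periostin (*Postn*), the thrombospondins *Thbs1*, *Thbs2* and *Thbs3*, osteonectin (*Sparc*) and osteopontin (*Spp1*). A gene was taken as measured where a probe set of the array was annotated to its symbol alone, with the brightest kept if there were several. This held for 9 of the 10, each with 1 probe set, among 19946 genes measured in the same way. No probe set was matched to *Spp1*, and it has no value here.

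RNA came from mouse 3T3 cells, an established fibroblast line, and was hybridised to 9 Affymetrix Mouse Gene ST arrays. There were 3 groups of 3 independent samples: wild-type cells without stimulation, wild-type cells given 5 ng/ml of the inflammatory cytokine TNF-α for 1 h, and Trap-80 knock-down cells given the same dose for the same time. Trap-80, encoded by *Med17*, is a subunit of Mediator, the complex that links transcription factors to RNA polymerase II. The cells called wild type carried an irrelevant short hairpin RNA (shRNA), and the knock-down cells came from clonal lines that stably expressed an shRNA against Trap-80. Properties of a selected clone and loss of Trap-80 therefore cannot be told apart, and with no resting knock-down group among the arrays analysed here, neither can a difference at rest and a difference in the response.

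All values below are log2 signals as deposited, so a difference of 1 is a doubling or halving of array signal, and levels are compared between groups for the same gene only. The array medians lay between 4.47 and 4.59, and the median over all probe sets was 4.51. *Med17* averaged 7.89 ± 0.11 (SD, n = 3) in stimulated wild-type and 6.25 ± 0.09 in knock-down cells, a fall of 1.64 (SE 0.09, limma adjusted p = 4.77e-05), and the groups did not overlap. Of the 11 fibroblast markers measured, *Col1a1*, *Col1a2* and *Vim* had group means of 12.33 to 12.74, while *Fap* and *Lum* were below 4.51. *Ptprc*, *Pecam1* and *Epcam*, which mark leukocytes, endothelium and epithelium, had means of 2.72 to 3.28. Some other macrophage and epithelial markers were brighter: *Krt8* had means of 5.44 to 6.13, *Cd68* 5.35 to 5.64 and *Cd14* 5.32 to 5.67. Below 4.51 were 4 of 6 macrophage, 5 of 5 endothelial and 3 of 5 epithelial markers. Of 6 smooth muscle markers 2 were below it, while *Acta2* had means of 12.87 to 13.03. In the knock-down 3 of the 11 fibroblast markers passed the test: *Thy1* was higher by 2.09 (SE 0.19, adjusted p = 4.79e-04) and *S100a4* by 0.55 (adjusted p = 0.0106), and *Pdgfra* differed by -1.89 (SE 0.12, adjusted p = 9.5e-05). With changes in both directions, the sum of log2 signals over the whole fibroblast marker list ranged from 93.4 to 96.2 in stimulated wild-type and from 94.2 to 96.6 in knock-down arrays. Of the chondrocyte markers, 1 of 5 (*Col2a1*) fell, and the sum of log2 signals over that list was 27.1 to 28.3 in stimulated wild-type and 25.4 to 26.2 in knock-down arrays. The part of these marker changes in the results below was not tested. No marker of macrophages, endothelium, epithelium, osteoblasts, glia or smooth muscle passed the test in the knock-down.

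Promoter sequence is shown for 3 genes that fell in the knock-down and for *Thbs2*, which did not pass the test, so that the bases in front of each start can be set side by side. Each line gives the 250 bases before an annotated transcription start, 5′ to 3′ on the strand of the gene, from RefSeq (GRCm38.p6). *Tnn* is at chr1:160153576-160153825 on the minus strand, the second of the 2 *Postn* starts in the table (shown because it holds a match) at chr3:54360857-54361106 on the plus strand, *Thbs3* at chr3:89214930-89215179 on the plus strand and *Thbs2* at chr17:14694263-14694512 on the minus strand. Capitals mark every match to the motifs searched on both strands.
Tnn: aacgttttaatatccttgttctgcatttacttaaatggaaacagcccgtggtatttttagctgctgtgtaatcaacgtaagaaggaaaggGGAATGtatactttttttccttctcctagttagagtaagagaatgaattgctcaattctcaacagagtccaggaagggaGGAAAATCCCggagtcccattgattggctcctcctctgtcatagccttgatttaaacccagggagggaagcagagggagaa
Postn: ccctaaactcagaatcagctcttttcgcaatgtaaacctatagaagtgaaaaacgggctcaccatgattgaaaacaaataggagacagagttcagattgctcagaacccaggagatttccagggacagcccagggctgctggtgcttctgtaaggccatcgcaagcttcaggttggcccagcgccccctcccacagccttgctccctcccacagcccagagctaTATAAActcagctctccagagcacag
Thbs3: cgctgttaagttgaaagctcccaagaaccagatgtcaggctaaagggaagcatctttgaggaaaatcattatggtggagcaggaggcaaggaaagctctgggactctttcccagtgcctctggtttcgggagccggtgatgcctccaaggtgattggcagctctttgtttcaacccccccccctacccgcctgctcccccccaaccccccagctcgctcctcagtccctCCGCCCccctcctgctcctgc
Thbs2: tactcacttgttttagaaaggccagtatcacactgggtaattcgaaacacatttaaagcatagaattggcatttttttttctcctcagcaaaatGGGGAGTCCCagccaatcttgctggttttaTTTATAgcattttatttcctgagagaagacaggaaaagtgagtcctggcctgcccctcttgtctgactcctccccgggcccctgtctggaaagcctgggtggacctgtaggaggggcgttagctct
The motifs were TATAAA (in 12.4% of all 32851 promoters of the table), the AP-1 site TGANTCA (6.75%), the TEAD site GGAATG (12.6%), the GC box GGGCGG (32.7%), the NF-κB consensus (7.25%) and the CArG box (1.47%). *Tnn* held a TEAD match that began at position -160 from the start and an NF-κB consensus match at -81. *Thbs2* also held an NF-κB match, at -156, and a TATAAA match on the reverse strand at -126. *Postn* had TATAAA at -26 of the start shown, while the window of its first start, at chr3:54359017-54359266, held no match to any of the motifs, and *Thbs3* had a GC box on the reverse strand at -21. No match overlapped another in these windows, and a match is a run of letters, not a site shown to be bound.

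The first comparison asked which genes responded to TNF-α in wild-type cells. None of the 9 matricellular genes passed the test (limma, Benjamini-Hochberg over 23410 probe sets, threshold 0.05), and none had an unadjusted p under 0.05. Over all probe sets 0.115% passed and 7.10% had an unadjusted p under 0.05. The differences ran from -0.21 for *Thbs2* to 0.35 for *Tnn*, with 6 above 0 and 3 below, and the median was 0.09 beside -0.02 for all probe sets. The lowest adjusted p of the 9 was 0.783, for *Tnxb*, and the 95% interval of *Tnn*, -0.24 to 0.93, leaves room for a change of nearly 2-fold. For *Postn* the interval was wider, -1.21 to 1.62. These differences share the stimulated wild-type arrays with the knock-down comparison.

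The second comparison asked what the same genes did in the knock-down under TNF-α. Of the 9, *Tnn*, *Postn*, *Thbs1* and *Thbs3* were lower and none was higher, which is 44.4% beside 5.96% of all probe sets that passed in either direction and 2.60% that were lower. These shares include dim probe sets. With those whose means lay below 4.51 in every group left out, 1679 of 13440 passed, 724 of them lower, and the same 4 genes passed. In 5 of the 9 the unadjusted p was under 0.05, as in 17.4% of all probe sets. In 5 the knock-down arrays lay wholly apart from the stimulated wild-type arrays (4 lower and *Tnc* higher), as in 20.9% of all probe sets. The median over the 9 was -0.08 and that of all probe sets -0.02, so the falls did not extend to the whole set. In bulk RNA, fewer cells of a kind and less RNA per cell cannot be told apart.

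**Figure D1:**
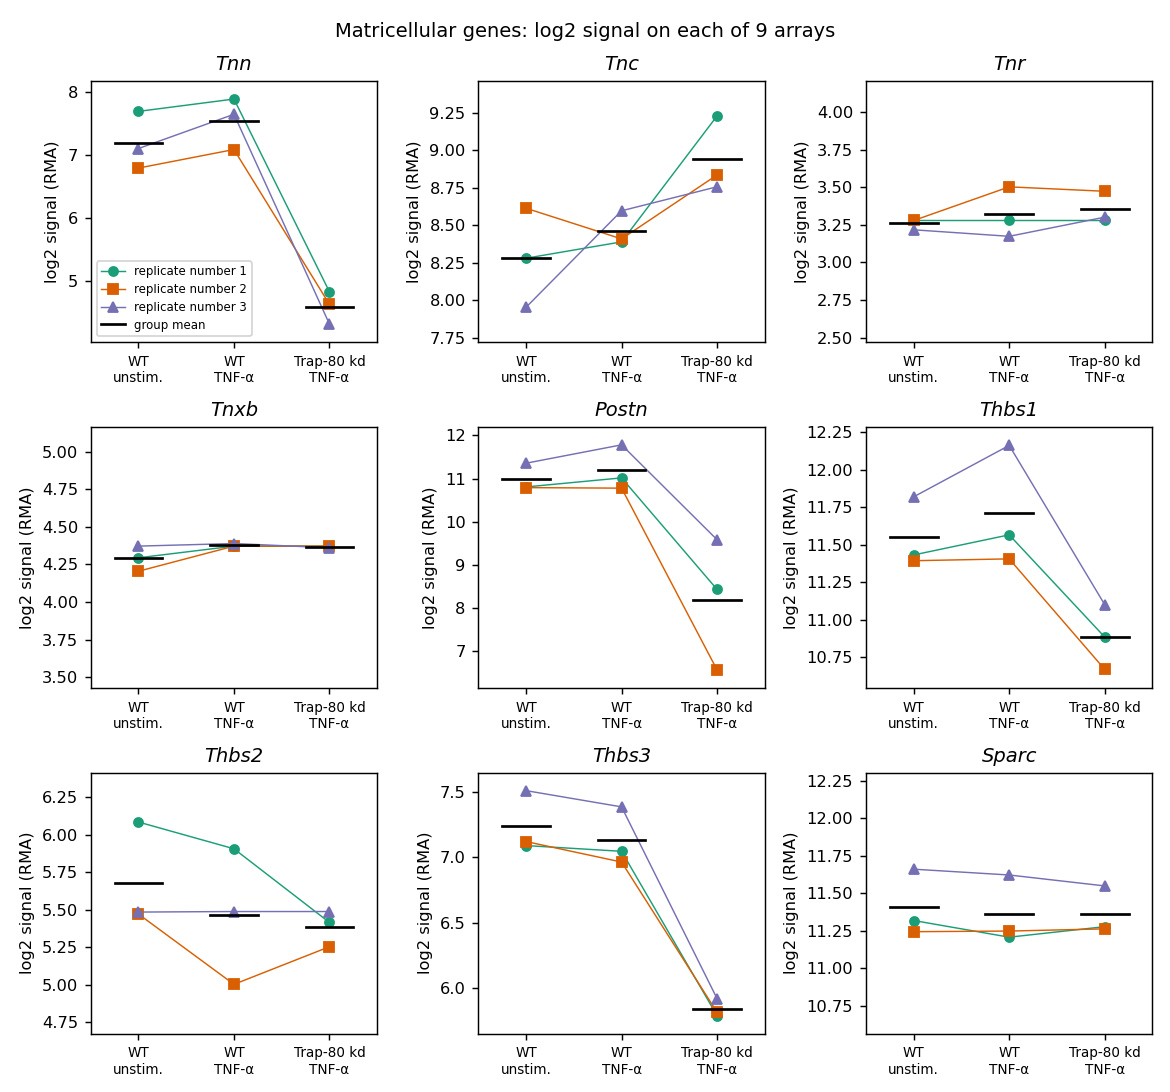
Log2 signal (y axis, a separate range in each panel) of each of the 9 measured genes on each array, with the 3 groups on the x axis, points for arrays and bars for group means. The knock-down arrays of *Tnn*, *Postn*, *Thbs1* and *Thbs3* lie below all wild-type arrays, those of *Tnc* lie above, and those of *Tnr*, *Tnxb*, *Thbs2* and *Sparc* lie within or next to the wild-type values.

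Among the tenascins, large modular glycoproteins that tend to loosen cell adhesion, only *Tnn* passed the test in the knock-down. *Tnn*, which encodes tenascin-W, a form found around stem cell niches, bone and tumour stroma, gave 7.69, 6.79 and 7.10 in the unstimulated and 7.89, 7.09 and 7.65 in the stimulated wild-type arrays, against 4.82, 4.62 and 4.31 in the knock-down arrays. All 3 knock-down arrays were thus lower than every wild-type array by more than the spread within either wild-type group. The mean fell from 7.54 ± 0.41 (SD, n = 3) to 4.58 ± 0.26, a difference of -2.96 (SE 0.26, adjusted p = 4.51e-04), and 12.9% of the wild-type signal remained. Only 6 of the 19946 genes had a lower difference. The knock-down mean was near 4.51, the median of all probe sets.

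*Tnc*, tenascin-C, a tenascin well known from healing wounds, lay the other way. Its arrays read 8.28, 8.61 and 7.95 in unstimulated wild-type cells, 8.39, 8.41 and 8.60 with TNF-α, and 9.23, 8.83 and 8.76 in the knock-down. Each knock-down array was above each wild-type array. The difference of 0.48 (SE 0.17, 95% interval 0.08 to 0.87) had an adjusted p of 0.182 and did not pass. *Tnr*, a tenascin of the nervous system, read 3.17 to 3.50 over the 9 arrays, and *Tnxb*, a tenascin of loose connective tissue, read 4.21 to 4.39. Both were below the median of all probe sets on every array. Their knock-down differences were 0.03 (95% interval -0.18 to 0.25) and -0.01 (-0.16 to 0.14), and at signals this low a change in transcript may not be visible.

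*Postn* encodes periostin, which binds collagen and integrins and helps to cross-link collagen fibres. It gave 10.81, 10.79 and 11.35 in unstimulated wild-type arrays and 11.02, 10.78 and 11.78 in stimulated ones, against 8.43, 6.57 and 9.58 in the knock-down. The knock-down arrays were all below the wild-type arrays but differed among themselves by 3.01. The mean was 11.19 ± 0.52 in stimulated wild-type and 8.20 ± 1.52 in knock-down cells, a difference of -2.99 (SE 0.63, 95% interval -4.41 to -1.58, adjusted p = 0.0239), which leaves 12.6% of the signal. An SD of 1.52 was the largest of all 23410 probe sets in that group, where the median SD was 0.10. The size of the fall therefore depended on the array: it was -2.18 (adjusted p = 0.026) without the second knock-down array and -3.69 (adjusted p = 0.0088) without the third. The call was lost without the first, the second or the third stimulated wild-type array (adjusted p = 0.076, 0.061 and 0.075) and without the first knock-down array (0.069).

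**Figure D2:**
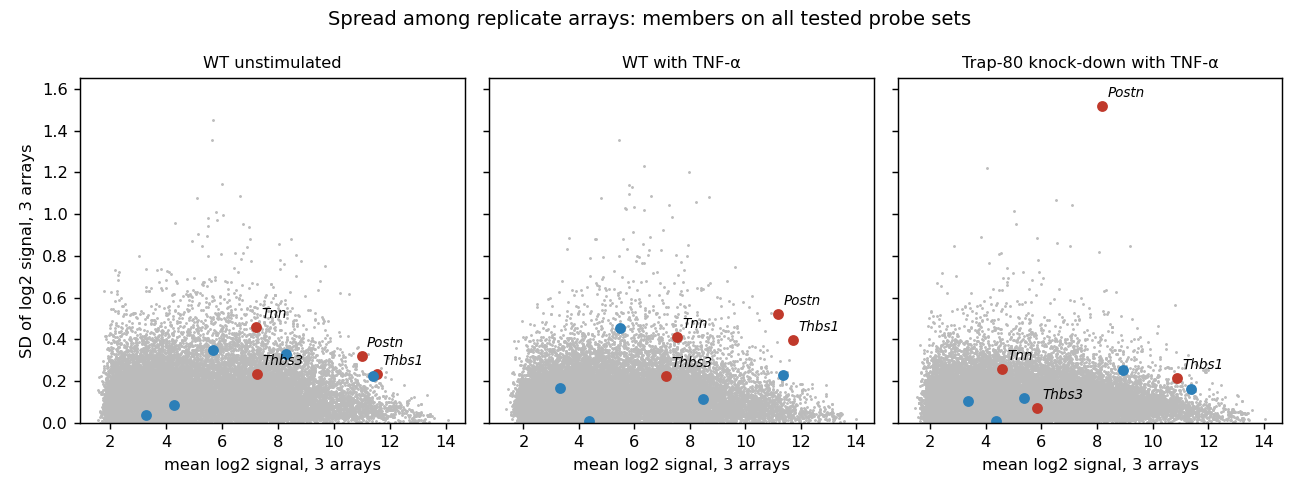
SD among the 3 arrays of a group (y axis, log2 units) against the mean log2 signal (x axis) for all 23410 probe sets in grey, with 1 panel per group and the 9 measured genes as large points, red for those that fell in the knock-down and blue for the others. *Postn* in the knock-down, with an SD of 1.52, lies above every other probe set of that panel.

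Thrombospondins are calcium-binding matrix proteins. *Thbs1* and *Thbs2* form trimers that restrain blood vessel growth, and *Thbs1* also activates latent TGF-β, while *Thbs3* forms pentamers and is known from cartilage and muscle. *Thbs3* gave 7.09, 7.12 and 7.51 in unstimulated and 7.05, 6.96 and 7.39 in stimulated wild-type arrays, and 5.79, 5.81 and 5.92 in the knock-down. The knock-down arrays were close together and all more than 1 below the wild-type arrays. The mean fell from 7.13 ± 0.22 to 5.84 ± 0.07, a difference of -1.29 (SE 0.14, adjusted p = 9.88e-04), with 40.8% of the signal left.

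*Thbs1* gave 11.43, 11.39 and 11.82 in unstimulated and 11.57, 11.41 and 12.16 in stimulated wild-type arrays, and 10.88, 10.67 and 11.10 in the knock-down. The groups did not overlap, but the highest knock-down array was near the lowest wild-type array. With 56.4% of the signal left, the difference was -0.83 (SE 0.20, 95% interval -1.28 to -0.37). It passed narrowly in the model without replicate numbers, with an adjusted p of 0.0465. It did not pass without the first or second unstimulated wild-type array (adjusted p = 0.077 and 0.070), the first or the third stimulated wild-type array (0.099 and 0.084) or the first, the second or the third knock-down array (0.13, 0.16 and 0.073). *Thbs2* read 5.91, 5.00 and 5.49 in stimulated wild-type and 5.42, 5.25 and 5.49 in knock-down arrays, which overlapped. Its difference was -0.08 (95% interval -0.60 to 0.44, adjusted p = 0.91), so a fall the size of that of *Thbs1* lies outside the interval.

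*Sparc*, a collagen-binding glycoprotein of bone and healing tissue, read 11.21, 11.25 and 11.62 in stimulated wild-type and 11.28, 11.26 and 11.55 in knock-down arrays. The groups overlapped almost fully. The difference was 0.00 with a 95% interval of -0.33 to 0.34.

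**Figure D3:**
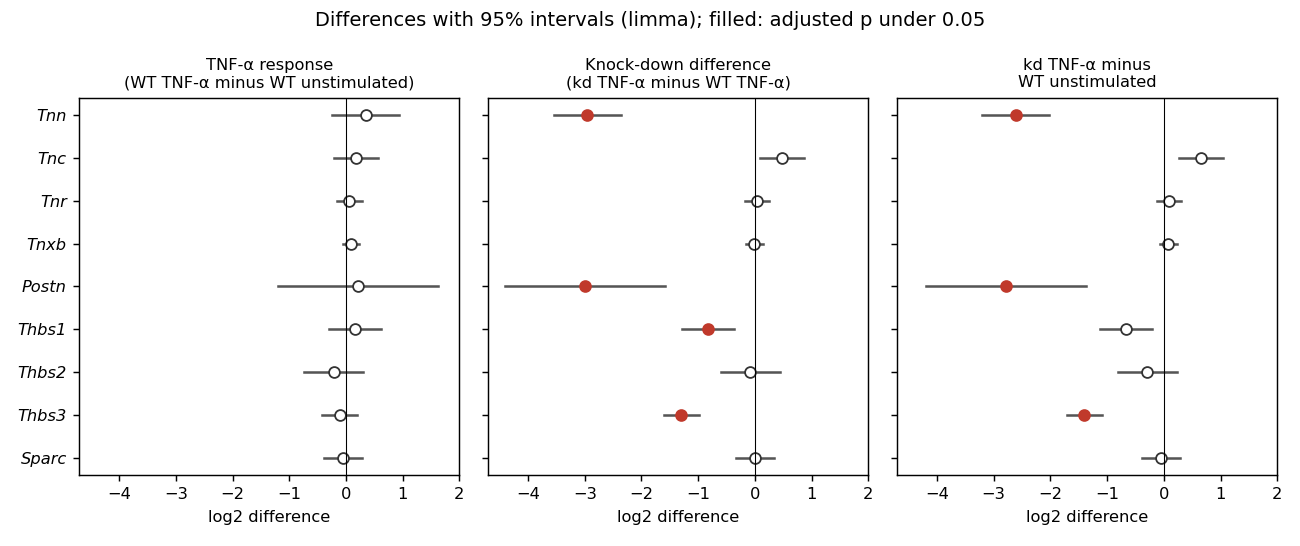
Log2 difference (x axis) of each measured gene in the 3 comparisons, 1 panel each, with bars for the 95% interval and filled points for an adjusted p under 0.05. In the knock-down comparison *Postn* (-2.99) and *Tnn* (-2.96) lie farthest to the left, *Postn* with the widest bar, and in the TNF-α response all 9 bars cross 0.

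Arrays with the same replicate number moved together in part. *Postn*, *Thbs1*, *Thbs3* and *Sparc* were each highest on the array numbered 3 in all 3 groups, a pattern seen in 2340 of all 23410 probe sets, against 830 for number 1 and 787 for number 2. *Tnn* was highest on number 1 in each group. Taken within numbers, the knock-down differences were -3.07, -2.46 and -3.34 for *Tnn*, -2.58, -4.20 and -2.20 for *Postn*, -1.26, -1.15 and -1.47 for *Thbs3* and -0.68, -0.74 and -1.06 for *Thbs1*. All 12 of these values were below 0, as any pairing would give where the groups do not overlap. The p-values above come from a model without replicate numbers. With the number as a block in the limma model, the knock-down adjusted p was 0.0016 for *Thbs1* and 0.0036 for *Postn*.

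The third comparison set stimulated knock-down cells against unstimulated wild-type cells. *Tnn* (-2.61, SE 0.26, adjusted p = 5.54e-04), *Postn* (-2.79, SE 0.63, adjusted p = 0.0257) and *Thbs3* (-1.40, SE 0.14, adjusted p = 5.29e-04) were lower, 33.3% of the 9 beside 8.25% of all probe sets that passed in either direction and 4.62% that were lower. With dim probe sets left out, 2271 of 13440 passed, 1274 of them lower. *Thbs1* differed by -0.66 (95% interval -1.12 to -0.21, adjusted p = 0.0868). *Tnc* differed by 0.66 (95% interval 0.27 to 1.05) and missed the threshold narrowly, with an adjusted p of 0.0502. *Tnc* passed without the second unstimulated wild-type array (0.024) and *Thbs1* without the third stimulated wild-type array (0.028). *Postn* no longer passed without the first, the second or the third unstimulated wild-type array (0.079, 0.067 and 0.074) or the first knock-down array (0.072).

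The genes whose profile over the 9 arrays lay nearest to each gene that fell were found from the root mean square distance between profiles, each centred on its own mean. Profiles were not scaled, so distances tend to grow with the size of a gene's changes. They are not compared here between the genes that fell. For *Tnn* they were *Grem1*, a secreted BMP antagonist (distance 0.42, knock-down difference -2.79), *Mgst1*, a glutathione transferase (0.42, -2.75), and *Galnt13*, which starts O-linked glycosylation (0.43, -2.44). For *Thbs3* they were *Sgpl1*, which breaks down sphingosine 1-phosphate (0.09, -1.27), *Lgals3bp*, a galectin-binding glycoprotein (0.10, -1.28), and the zinc finger gene *Zfp637* (0.10, -1.12). Each of these 6 genes fell in the knock-down, which their choice favoured, since the knock-down arrays were part of the profiles compared. For *Thbs1* they were *Lmo7* at 0.05 (-0.83, adjusted p = 0.0405), *Foxn3* at 0.08 and *Cdh11*, a cadherin of mesenchymal cells, at 0.09. Of these, only *Lmo7* passed the test. For *Postn* the nearest were *Tmem45a* (-3.28) and *Aspn* (-2.18, adjusted p = 0.109), both at 0.60. *Aspn*, a small proteoglycan of the matrix, and *Prkg1* at 0.61 (-2.01, adjusted p = 0.00928) were, like *Postn*, lowest on the second knock-down array. Likeness to *Postn* on these arrays was part of how both were chosen.

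**Figure D4:**
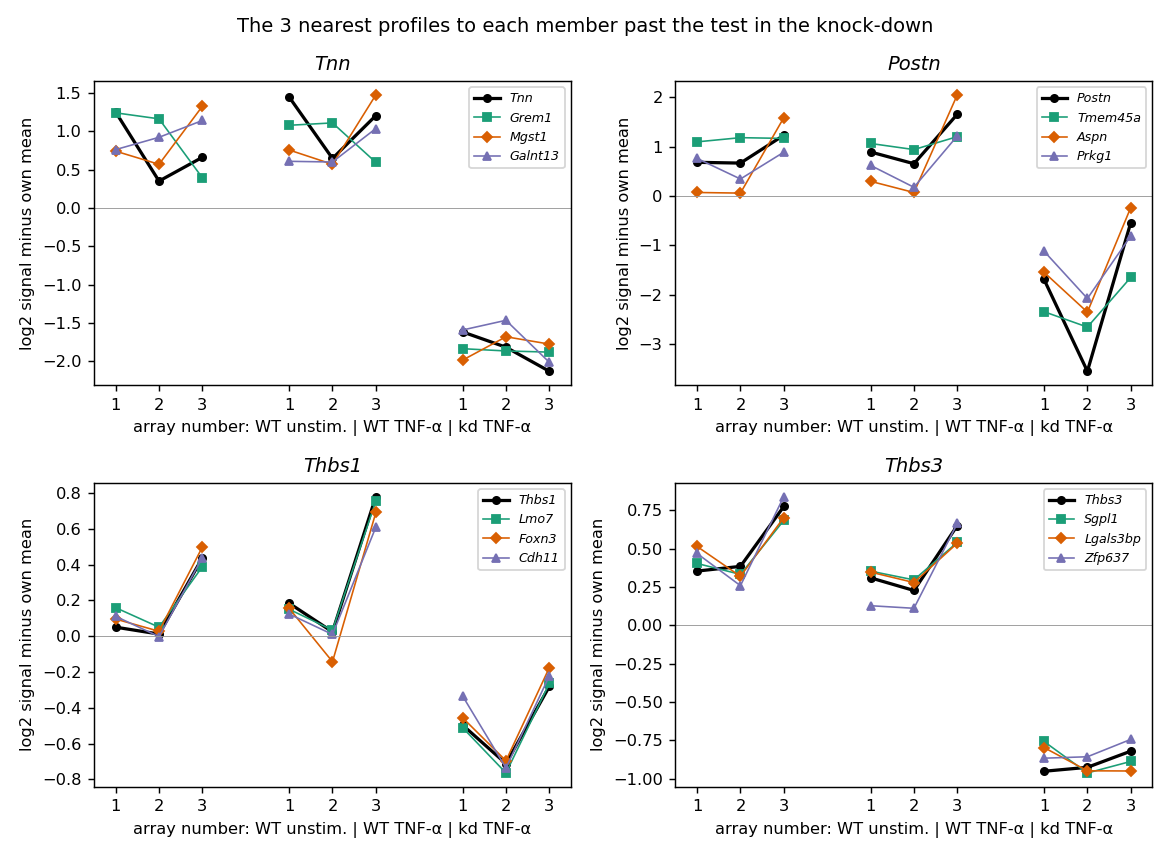
Log2 signal minus the gene's own mean (y axis) on the 9 arrays (x axis, array numbers within the 3 groups) for each gene that fell in the knock-down, in black, and its 3 nearest profiles in colour; y ranges differ between panels. *Lmo7*, *Foxn3* and *Cdh11* follow *Thbs1* up on array 3 of each group, and the genes nearest to *Postn* lie at distances of 0.60 to 0.61.

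The genes on either side in the genome were read in the same way. Of the 8 nearest measured neighbours of the 4 genes that fell, none passed the test in the knock-down. *Rasgrp1* and *Fsip1*, on the 2 sides of *Thbs1*, and *Trpc4* beside *Postn* had group means below 4.51, where a fall may not be visible. *Fsip1* differed by 0.28 (adjusted p = 0.144). *Mrps14* beside *Tnn* differed by -0.01 (SE 0.07), *Supt20* beside *Postn* by -0.27 (SE 0.11, adjusted p = 0.22), *Rasgrp1* beside *Thbs1* by -0.13 (SE 0.09) and *Mtx1* beside *Thbs3* by -0.03 (SE 0.09).

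Other genes of the matricellular network were read from lists of related proteins. Of 21 further matricellular genes, 2 fell in the knock-down and none rose, beside 5.96% of all probe sets that passed in either direction and 2.60% that were lower, and the median was -0.06 beside -0.02. *Fbln1*, fibulin-1, which binds fibronectin and elastic fibres, fell by 1.76 (SE 0.15, adjusted p = 4.29e-04), and *Smoc1*, a SPARC-related modular protein, fell by 0.97 (SE 0.17, adjusted p = 0.00972). The CCN family, which modulates growth factor and integrin signals, had members on both sides of 0: *Ccn3* differed by 1.32 (adjusted p = 0.0756), *Ccn2* by 0.70 (0.0707) and *Ccn5* by -1.59 (0.0572), none past the threshold. Of 23 receptors, 2 rose and none fell: the integrin subunits *Itgb5* (0.71, adjusted p = 0.0106) and *Itgb3* (0.68, adjusted p = 0.037), which pair with the αv chain in receptors for periostin and other matricellular proteins. That is 2 of 23 beside the same 5.96% of all probe sets, and the median of the receptors was 0.00.

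Of 15 matrix partners measured, 2 fell and none rose, with a median of -0.20 beside -0.02 for all probe sets. As for the proteases and regulators below, these counts stand beside the 5.96% of all probe sets that passed in either direction and the 2.60% that were lower. The matrix genes were *Lox*, the enzyme that cross-links collagen (-0.96, SE 0.21, adjusted p = 0.026), and *Col12a1*, a collagen that lies along fibrils (-0.82, SE 0.17, adjusted p = 0.0261). Of 14 proteases, *Plau*, urokinase, rose by 1.33 (adjusted p = 0.0238), and *Adamts1* (-1.22, adjusted p = 0.0351) and *Mmp9* (-0.72, adjusted p = 0.0261) fell. Of 25 upstream regulators measured, *Tgfb1* (0.78, adjusted p = 0.00681), *Smad3* (0.61, adjusted p = 0.0399) and *Ets1* (0.53, adjusted p = 0.0245) rose, while *Mrtfa*, a coactivator of serum response factor, fell by 0.52 (adjusted p = 0.00601) and *Tead2*, a partner of YAP, fell by 0.44 (adjusted p = 0.0263). *Tgfb1* and *Smad3* belong to the TGF-β pathway, a known inducer of *Postn*, *Thbs1* and *Tnc*. No gene of these 5 lists passed the test in the TNF-α response.

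**Figure D5:**
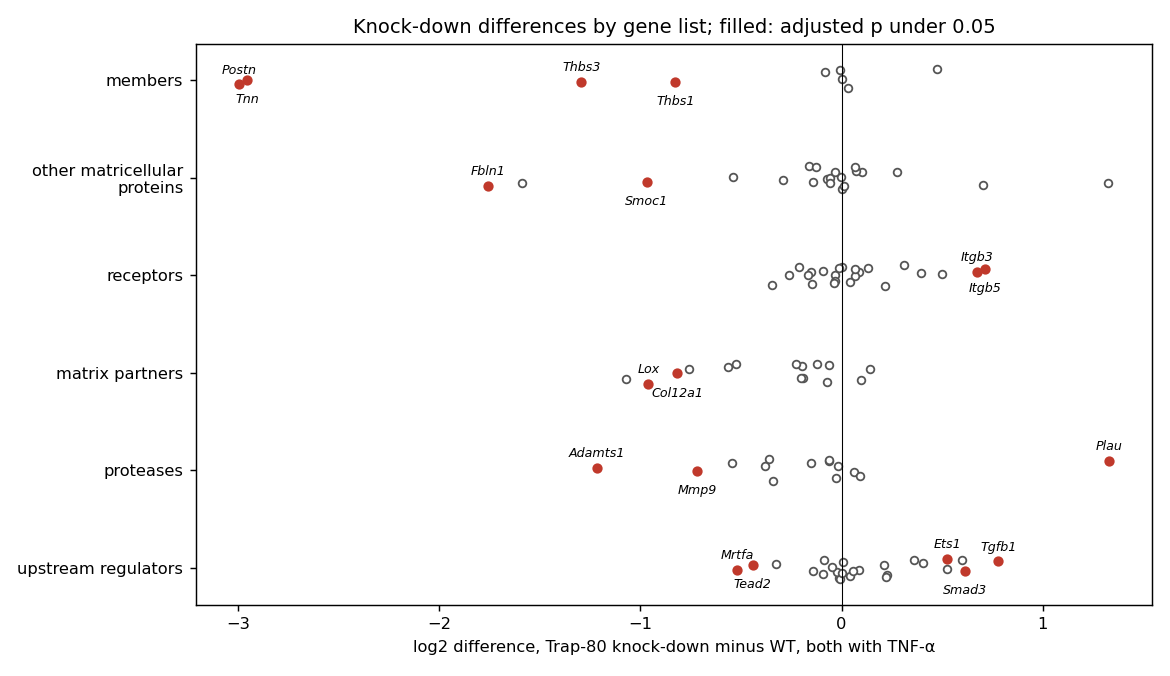
Knock-down difference (x axis, log2, stimulated knock-down less stimulated wild type) of each measured gene, by list on the y axis, with small vertical offsets for legibility, filled points for an adjusted p under 0.05 and names beside them. *Tnn* and *Postn* lie below every gene of the other 5 lists, where the lowest value is -1.76 for *Fbln1*.

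Against unstimulated wild-type cells, the same lists gave 2 higher and 3 lower of the 21 further matricellular genes, 4 higher and 1 lower of the receptors, *Lox* and *Col12a1* lower among the matrix partners, *Plau* alone (2.05, adjusted p = 0.00244) among the proteases, and 6 higher and 2 lower of the regulators. Of all probe sets, 8.25% passed in either direction here and 4.62% were lower. *Ccn3* (1.50, adjusted p = 0.0374), *Ccn4* (0.57, adjusted p = 0.0129) and *Ccn5* (-1.75, adjusted p = 0.0301) passed here. Among the regulators that rose were the immediate early genes *Jun* (1.63, adjusted p = 6.12e-04) and *Egr1* (1.33, adjusted p = 0.00343). In the TNF-α response of wild-type cells *Jun* differed by 1.03 (adjusted p = 0.0853) and *Egr1* by 1.12 (adjusted p = 0.116).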

How the data were processed

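The authors deposited log2 values, background-corrected, normalised and summarised per probe set by RMA (named in the submitters' processing notes, version not given in the sources used here), for 9 arrays of total RNA. Nothing was rescaled. Arrays give no read depth, and the precision is limited by 3 arrays a group. Probe sets were named from the platform annotation: of 35557, 21797 list 1 symbol, 1613 several and 12147 are unnamed here. The 23410 named ones were tested together in a linear model with a mean for each group and no covariate (R 4.3.3, limma 3.58.1, 3.2 prior degrees of freedom after eBayes), with Benjamini-Hochberg adjustment over all of them and a threshold of 0.05. The model was also run on simulated data with differences added to the knock-down arrays, a check that required recovery of the larger ones only. *Med17* was also compared by an exact two-sided permutation test (p = 0.1, the smallest that 3 against 3 arrays allow).

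The members and gene lists were chosen with earlier results of these data known, so their counts are descriptions. Genes named are the members, *Med17*, up to 4 genes per list with the largest difference among those past the test, cell type markers, the nearest gene on each side of a member past the test and its 3 nearest profiles; the CCN genes and the *Jun* and *Egr1* values in the TNF-α response were added after their values were seen. *Tead2* is named beyond the 4 regulators that this rule gives in the knock-down comparison. *Fbn1*, *Runx2*, *Nfkb1* and *Bglap* had no probe set of their own here. Promoters came from RefSeq (GRCm38.p6), where 9 of the 10 genes matched by symbol; *Thbs1* had no entry.

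Each array comes from an independent sample, as the paper words it, and the sources do not say what a replicate number marks. For each shRNA the paper took a single clone forward, and it does not state outright that the knock-down arrays used only that clone. If they did, the SE and adjusted p of the knock-down differences reflect spread between samples of that clone, not between clones. Deviations from the group means correlated between same-numbered arrays at 0.298, 0.11 and 0.403 in the TNF-α response and at 0.147, 0.274 and 0.465 in the knock-down comparison, so the numbers were taken to pair the arrays there; in the third comparison they correlated at 0.151, 0.002 and 0.221, so there the arrays share only a number. The main model did not use the pairing, which entered only as an alternative. Alternatives were the replicate number as a block, only the 6 arrays compared, all deposited probe sets, a filter on dim probe sets (13440 left), centring on array medians, quantile normalisation, a trended robust prior, the mean of a gene's probe sets, and each array left out in turn. Leaving out the arrays numbered 3 together was chosen after seeing the data.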

Additional observations from a re-analysis of the deposited data

How the results depend on the processing

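No matricellular gene passed the test in the TNF-α response under any alternative. *Tnn* and *Thbs3* were lower in the knock-down, past the threshold, under every alternative run, with the highest adjusted p at 0.021 and 0.0073. The number of the 9 genes that passed in the knock-down comparison, 4, dropped to 2 with only the 6 arrays compared (adjusted p = 0.087 for *Postn* and 0.10 for *Thbs1*) and to 2 with all deposited probe sets tested (0.063 and 0.11), and lay between 2 and 4 when arrays were left out. Centring on array medians also left *Thbs1* above the threshold (0.055), and it moved the share of higher among all calls from 56.3% to 68.8%. With the replicate number as a block, the same 4 genes passed in the knock-down comparison (0.0036 for *Postn* and 0.0016 for *Thbs1*). In none of the 3 comparisons did every array correlate best with its own number. Against unstimulated wild-type cells, 5 genes passed with the block instead of 3 (*Tnc* at 0.046 and *Thbs1* at 0.0034 were added), the pairing changed no other call of the 9 genes, and leaving out arrays gave 2 to 4. *Tnc* in that comparison also passed with dim probe sets left out (0.031), centring (0.037), quantile normalisation (0.035) and a trended robust prior (0.042), while *Postn* did not pass with only 6 arrays (0.077) or all probe sets (0.059). Over all probe sets, the block raised the calls from 27 to 55 in the TNF-α response and from 1395 to 2108 in the knock-down comparison. Differences near 0 changed sign: *Tnxb* in the knock-down was 0.048 with centring and 0.056 with quantile normalisation, and *Sparc* was -0.007 with quantile normalisation. With arrays left out, the TNF-α differences ranged from 0.14 to 0.59 for *Tnn*, -0.048 to 0.35 for *Tnc*, -0.031 to 0.13 for *Tnr*, -0.087 to 0.41 for *Postn*, -0.062 to 0.32 for *Thbs1*, -0.44 to 0.017 for *Thbs2*, -0.24 to 0.027 for *Thbs3* and -0.18 to 0.078 for *Sparc*, and the knock-down differences from -0.041 to 0.12 for *Tnr*, -0.31 to 0.14 for *Thbs2* and -0.089 to 0.14 for *Sparc*, with *Sparc* at -0.14 to 0.082 in the third comparison. The cause of these changes was not tested. Some alternatives bring fewer arrays or a larger number of tests, and the part of these was not tested either.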
